A study of Mus musculus with 38 samples.

Results

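Ccl3, Ccl4, Ccl5 and Ccl22 (listed as CCL3, CCL4, CCL5 and CCL22 in the files) encode secreted CC chemokines, and their RNA was followed through LPS-stimulated mouse B cells, plasmablasts and plasma cells. They are 4 of the 21032 gene names read in the RNA libraries, and they were picked by symbol with their measured values over all 7 RNA groups already known. Their own differences are therefore given as a description, with the spread between libraries and no p-value. All 4 names occur in every RNA file, and all 4 passed the filter on low values in the culture and in the inhibitor experiment.

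Chemokines are small secreted proteins that bind receptors of the G protein-coupled family and direct the migration of leukocytes. Ccl3 and Ccl4, also called MIP-1α and MIP-1β, are close relatives, and Ccl3 binds the receptor Ccr1. Ccl5, or RANTES, binds Ccr1 and Ccr3. Ccl22, or MDC, binds Ccr4, a receptor of helper and regulatory T cells, and is known as a product of activated B cells, dendritic cells and macrophages. Activated B cells release these chemokines to recruit and contact T cells, and NF-kB downstream of Toll-like receptors and the B cell receptor is a known activator of all 4 genes.

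The study asked how Blimp1, the transcriptional regulator encoded by Prdm1, coordinates the differentiation of B cells to plasma cells. It comprises 38 samples, of which 14 RNA libraries were used, in 7 groups of 2 libraries, and 24 other samples are not analysed here. All cells came from the C57BL/6 background and carried a GFP allele of Blimp1, so every control also has 1 reporter allele. In the culture experiment the controls were Blimp1(GFP/+) Cd23(Cre/+), stimulated with LPS (lipopolysaccharide, a ligand of Toll-like receptor 4 that activates B cells) for 4 days and sorted. Cells negative for CD138 and GFP were the activated B cells, GFP+ cells without CD138 the pre-plasmablasts, and cells with both the plasmablasts. Blimp1-deficient pre-plasmablasts were Blimp1(GFP/fl) Cd23(Cre/+), had the same LPS culture and were sorted as CD138– GFP+ CD22hi. Their genotype and their gate differ together from those of the control pre-plasmablasts. Cd23-Cre acts in mature B cells, so deletion of the floxed allele depends on that Cre. In the inhibitor experiment Blimp1(GFP/+) cells without Cre were cultured with LPS for 4 days and with DMSO alone or with GSK343, which blocks the histone methyltransferase EZH2, and pre-plasmablasts were sorted as CD138– GFP+. Plasma cells of Blimp1(GFP/+) mice were sorted ex vivo as CD28+ CD138+ GFP+ Lin-.

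Levels are RPKM, which divides reads by transcript length and library size, so that levels of different genes can be set beside each other. The culture values are GC-normalized and those of the inhibitor experiment and of plasma cells are not, so levels are compared only within a file type. Differences are between group means of log2(RPKM + 1), with the standard error (SE) of a limma fit, and understate changes of low genes. Each mean ± SD is over 2 libraries. The labels do not state that paired libraries are from different mice or cultures, so the spread and the p-values of other genes measure only the variation between these samples, which may be technical. These are bulk samples, in which fewer cells expressing a gene and less RNA per cell cannot be told apart.

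Between 9744 and 10077 genes reached 1 RPKM in the culture libraries, 9188 to 9519 in the inhibitor libraries and 9869 to 9885 in the plasma cell libraries. The reads behind the culture values are unknown. In the inhibitor files the low values lie on steps of whole reads, and the libraries had 0.832 to 1.01 times the depth of the first DMSO library. Prdm1 levels were 9.09 ± 2.33 RPKM for activated B cells, 377.7 ± 72.2 in pre-plasmablasts, 325.9 ± 52.2 in plasmablasts and 184.8 ± 19.4 in the Blimp1-deficient group, a value that counts RNA from the GFP allele and from what the deletion leaves of the floxed one. The summed level of 7 B cell markers was 1499 to 4309 RPKM over the culture libraries, with Cd79a or Cd79b the highest in every group. Scaling the libraries by median of ratios moved the median difference of all genes by 0.11 for pre-plasmablasts against activated B cells and by -0.11 for Blimp1-deficient against control pre-plasmablasts. The share of calls that were higher then went from 41.9% to 52.1%, from 60.3% to 48.0% and, for plasmablasts against pre-plasmablasts, from 30.6% to 42.6%. With the 2 series of library numbers as a block, limma called 2128 genes in place of 245 for plasmablasts against pre-plasmablasts, 6829 in place of 4234 for Blimp1-deficient against control pre-plasmablasts, and 4477 in place of 1885 for the deficient cells against activated B cells.

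The members lie at 2 places in the genome. Ccl3, Ccl4 and Ccl5 are on mouse chromosome 11, where Ccl3 and Ccl4 are direct neighbours whose RefSeq spans overlap, and Ccl5 is flanked by Heatr9 and Ccl9. Ccl22 is on chromosome 8 between Pllp and Cx3cl1. The sources used here do not say whether counting used strand, so how reads from the overlap of Ccl3 and Ccl4 were counted is not known.

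RefSeq windows before the gene start were available for 2 of the 4 members, Ccl3 and Ccl22. Both are shown. Of the members, Ccl3 had the largest difference with GSK343 and Ccl22 with loss of Blimp1. The 250 bases before the start are printed 5′ to 3′ on the strand of the gene, from assembly GRCm38.p6, for Ccl3 at chr11:83649379-83649628 (minus strand) and for Ccl22 at chr8:94745434-94745683 (plus strand). Capitals would mark a match to a motif, and neither holds one.
Ccl3: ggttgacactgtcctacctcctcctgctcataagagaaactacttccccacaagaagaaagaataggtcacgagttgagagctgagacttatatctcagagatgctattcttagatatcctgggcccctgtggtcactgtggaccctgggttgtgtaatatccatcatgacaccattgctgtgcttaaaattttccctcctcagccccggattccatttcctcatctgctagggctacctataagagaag
Ccl22: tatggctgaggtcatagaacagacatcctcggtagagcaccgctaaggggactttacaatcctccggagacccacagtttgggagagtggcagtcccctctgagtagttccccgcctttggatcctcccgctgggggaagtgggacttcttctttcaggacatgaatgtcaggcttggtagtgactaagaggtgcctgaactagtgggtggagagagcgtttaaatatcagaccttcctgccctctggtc

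Letters were searched on both strands in 32851 such windows. The NF-kB motif (GGG and TTTCC with 2 bases between) was in 1.41% of all windows, the AP-1 motif TGANTCA in 6.75% and the core of the Blimp1 site, AGTGAAAG, in 1.09%. The interferon response element (GAAA and GAAA with 2 bases between) was in 2.98%, and the ETS-IRF composite (GGAA and GAAA with 2 bases between) in 2.3%. The last of these and the interferon response element can share bases, as both can with the Blimp1 core. The windows of Ccl3 and Ccl22 hold none of the 5, which says only that these letters are not in these 250 bases.

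Ccl22 differed most between the groups of the culture experiment. Activated B cells held 106.0 and 152.5 RPKM of it in their libraries, pre-plasmablasts 10.5 and 14.7, plasmablasts 6.08 and 15.0, and Blimp1-deficient cells 625.2 and 488.6. From the highest level down the order was therefore Blimp1-deficient pre-plasmablasts, activated B cells, and then pre-plasmablasts and plasmablasts, whose libraries overlap. By mean level Ccl22 ranked 556th of 11441 gene names in activated B cells, 5238th in pre-plasmablasts and 77th in Blimp1-deficient pre-plasmablasts.

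Ccl5 was the other member with its highest level in Blimp1-deficient cells. Its libraries held 35.2 and 29.8 RPKM in activated B cells, 71.3 and 52.4 in pre-plasmablasts, 23.0 and 20.5 in plasmablasts, and 76.1 and 82.8 without Blimp1. The 4 groups did not overlap, with Blimp1-deficient pre-plasmablasts first, control pre-plasmablasts next, then activated B cells and plasmablasts last. The means of the first and the next were 79.4 ± 4.77 and 61.9 ± 13.4 RPKM.

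Ccl3 and Ccl4 had lower levels and smaller differences in culture, and both were lowest in Blimp1-deficient cells. Levels of Ccl3 were 11.3 and 16.5 RPKM in activated B cells, 13.9 and 9.80 in pre-plasmablasts, 11.1 and 10.05 in plasmablasts, and 7.14 and 6.84 in the Blimp1-deficient libraries. The 3 control groups overlapped for Ccl3, and the Blimp1-deficient libraries lay below every other library. Levels of Ccl4 were 3.60 and 3.73 RPKM in activated B cells, 9.61 and 6.17 in pre-plasmablasts, 11.5 and 6.10 in plasmablasts, and 2.55 and 1.89 in the Blimp1-deficient libraries. For Ccl4 the GFP+ control groups overlapped and stood above activated B cells, which stood above Blimp1-deficient pre-plasmablasts.

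**Figure D1:**
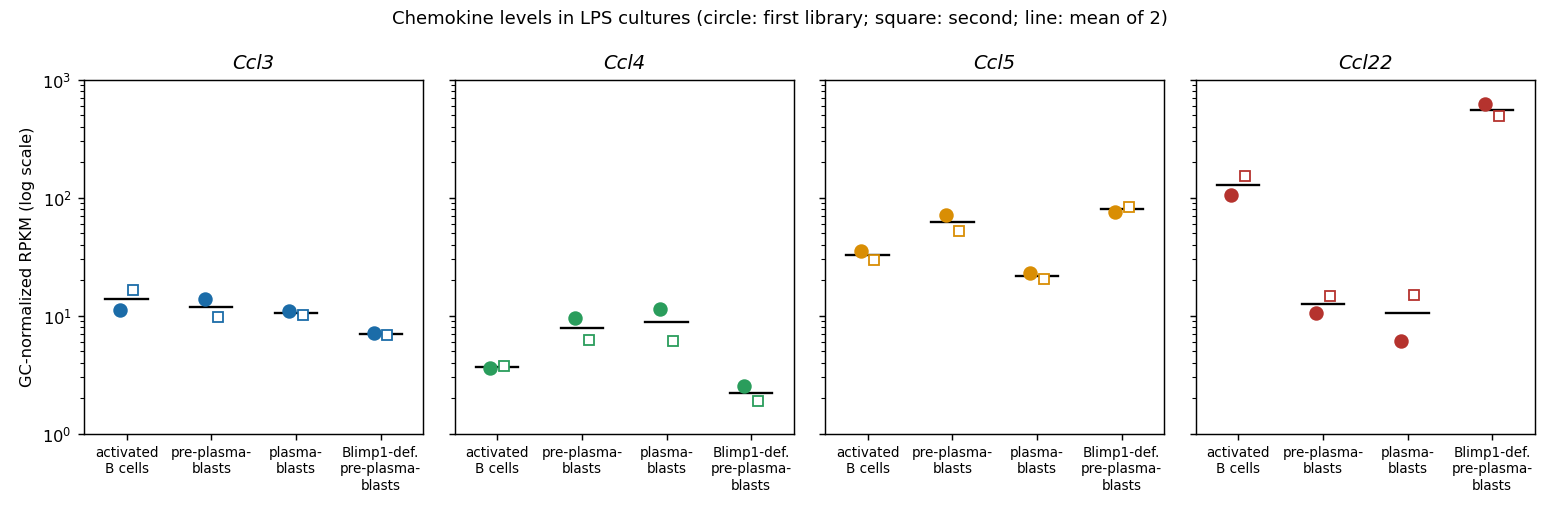
RPKM (log axis) of Ccl3, Ccl4, Ccl5 and Ccl22 in the 4 groups of LPS-stimulated cells; the circle is the first and the open square the second library of a group, and the line is their mean. Ccl22 runs from 6.08 to 625.2 RPKM over the 8 libraries, with both Blimp1-deficient libraries on top.

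Setting pre-plasmablasts against activated B cells asks what differs once the Blimp1 reporter is on. Ccl22 was lower in pre-plasmablasts, at 12.6 ± 2.94 against 129.3 ± 32.9 RPKM, a 10.2-fold lower mean. The difference was -3.25 ± 0.40 (SE) on the log2 scale, and 41 of the 10473 genes tested had a lower one. It was -3.21 between the first libraries and -3.29 between the second ones, which were numbered in the same series.

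Ccl4 and Ccl5 were higher in pre-plasmablasts by similar amounts. For Ccl4 the means were 7.89 ± 2.43 and 3.67 ± 0.091 RPKM and the log2 difference 0.90 ± 0.30 (SE). For Ccl5 the mean was 1.90 times that of activated B cells and the log2 difference 0.90 ± 0.16. Ccl3, at 11.9 ± 2.91 against 13.9 ± 3.73 RPKM, did not differ beyond the spread of its libraries. Its difference of -0.21 ± 0.21 became 0.049 without the second library of activated B cells and 0.024 without the second library of pre-plasmablasts. In all, 2 members were higher without overlap of libraries, 1 lower and 1 overlapping, where 29.9% of all genes tested were higher and 43.0% lower in this way. The members' median difference was 0.34, against -0.12 for all genes tested.

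Plasmablasts, which have gained CD138, differed from pre-plasmablasts mainly in Ccl5. Ccl5 was lower in plasmablasts, at 21.8 ± 1.76 against 61.9 ± 13.4 RPKM, a 2.84-fold lower mean. The log2 difference was -1.45 ± 0.16 (SE), with 26 of 10473 genes lower still, and -1.59 and -1.31 between same-series libraries. The libraries of the other 3 members overlapped, where 15.8% of all genes tested were higher and 26.4% lower without overlap. The differences were -0.14 ± 0.21 for Ccl3, 0.11 ± 0.30 for Ccl4 and -0.34 ± 0.40 for Ccl22, each within about 1 SE of 0. A single library turned each of these signs. Without the first plasmablast library the difference of Ccl4 was -0.30 and that of Ccl22 was 0.25, without the first pre-plasmablast library that of Ccl3 was 0.10, and without the second one that of Ccl4 was -0.17. The median of the members was -0.24, against -0.043 for all genes.

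The comparison of Blimp1-deficient with control pre-plasmablasts shows which RNAs differ between these cells, both with an active Blimp1 reporter. Genotype and the CD22hi gate differ together here, so their parts cannot be told apart. Loss of Blimp1 is used as a short name for this comparison throughout. Ccl22 was higher in the deficient cells, at 556.9 ± 96.6 against 12.6 ± 2.94 RPKM, and its mean was 44.1 times the control mean. The log2 difference of 5.36 ± 0.40 (SE) was the largest of the 10473 genes tested, with 0 genes above it. It was 5.76 between the first and 4.96 between the second libraries, and 5.24 after median-of-ratios scaling.

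Ccl4 and Ccl3 went the opposite way from Ccl22. Ccl4 was lower in the deficient cells, at 2.22 ± 0.47 against 7.89 ± 2.43 RPKM, with a log2 difference of -1.45 ± 0.30 (SE). Ccl3 was lower by less, at 6.99 ± 0.21 against 11.9 ± 2.91 RPKM, with a log2 difference of -0.67 ± 0.21. Ccl5 was higher, with a mean 1.28 times that of the controls and a log2 difference of 0.37 ± 0.16. This last difference was uneven, at 0.091 between the first and 0.65 between the second libraries, and without a single library it ranged from 0.15 to 0.59. None of the 4 members overlapped between the groups, 2 being higher and 2 lower, where 41.3% of all genes tested were higher and 26.3% lower without overlap. The median of the members was -0.15, against 0.12 for all genes.

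Markers of other cell types also differed between these groups. Of 10 dendritic cell markers 7 are in the culture files, and their summed level was 143.7 to 172.5 RPKM in Blimp1-deficient pre-plasmablasts and 53.5 to 57.0 in the controls. Ccr7, which activated B cells express too, was at 121.2 RPKM in the deficient and 25.6 in the control cells, Flt3 at 22.8 and 16.7, and Itgax, which encodes CD11c, at 0.31 ± 0.19 and 0.13 ± 0.022. Ly75 was at 11.3 and 11.7. In activated B cells these 7 markers summed to 208.8 to 214.0 RPKM, with Ccr7 at 143.5 and Flt3 at 46.9. Of the 4 dendritic cell markers tested 3 were called higher in the deficient than in the control cells, beside 24.4% of all genes called higher and 16.1% lower. The summed level of 4 myeloid markers was 86.1 to 101.0 RPKM against 36.4 to 36.9, and all 4 were called higher, beside the same shares. Their median log2 difference was 2.35, against 0.12 for all genes. Cd68 was at 42.0 RPKM in the deficient and 30.3 in the control cells, Ms4a7 at 35.6 and 5.68, Itgam at 11.9 and 0.59, and Emr1 at 4.11 and 0.061. In activated B cells these 4 summed to 31.9 to 32.9 RPKM, with Cd68 at 14.1, Ms4a7 at 6.12, Itgam at 10.6 and Emr1 at 1.57. The summed level of 4 T cell markers was 259.6 to 304.0 against 66.1 to 72.7, nearly all of it Cd2, and 156.5 to 208.0 in activated B cells. Cd8b1 was at 5.04 RPKM in the deficient and 0.18 in the control cells, Cd247 at 4.21 and 5.29, and Lat at 0.39 and 1.61. Of these 4 T cell markers 2 were called higher and 1 lower, beside the same shares of all genes. The 2 natural killer and cytotoxic markers in the files were lower in the deficient cells, at a sum of 1.93 to 2.70 RPKM against 3.68 to 6.18. Of these, Eomes was at 0.23 RPKM in the deficient and 2.93 in the control cells. None of these markers was at 0 in both libraries of a group, and the part of other cells in the chemokine values was not tested.

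Set against activated B cells, Blimp1-deficient pre-plasmablasts held more Ccl22 and Ccl5 and less Ccl3 and Ccl4. The mean of Ccl22 was 4.31 times that of activated B cells, with a log2 difference of 2.11 ± 0.40 (SE) and 58 genes above it. The mean of Ccl5 was 2.44 times as high, with a log2 difference of 1.27 ± 0.16. The difference was -0.88 ± 0.21 for Ccl3 and -0.54 ± 0.30 for Ccl4, the second of which is under 2 SE. No member overlapped, 2 being higher and 2 lower, against 28.2% of all genes higher and 27.3% lower without overlap. The median of the members was 0.36 and that of all genes 0.0039. This comparison shares the deficient libraries with the one before it and the activated B cell libraries with the first one, so the 3 are not independent.

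**Figure D2:**
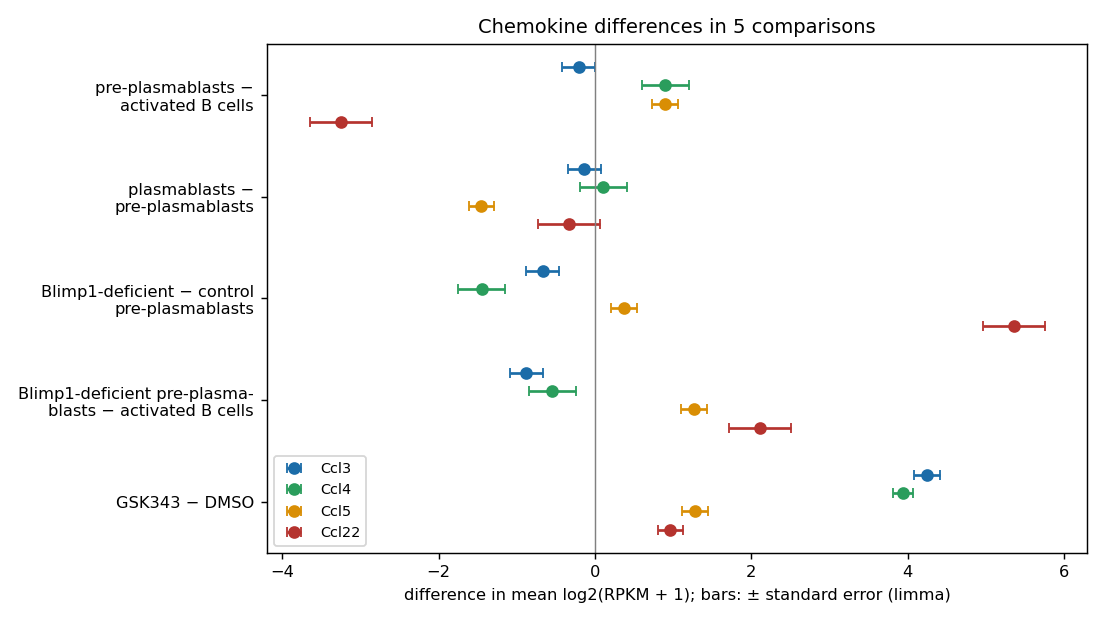
Difference in mean log2(RPKM + 1) of each chemokine in the 5 comparisons, with bars of ± 1 SE from the limma fits; values right of 0 are higher in the group named first. Ccl22 runs from -3.25 to 5.36 among the culture comparisons, and all 4 genes lie right of 0 for GSK343 against DMSO.

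The inhibitor experiment asks which genes differ in pre-plasmablasts when EZH2, the enzyme that places the repressive H3K27me3 mark, is inhibited. Ccl3 was at 1.36 and 2.51 RPKM with DMSO and at 54.3 and 52.9 with GSK343. The mean went from 1.93 ± 0.82 to 53.6 ± 1.01 RPKM, 27.7 times as high, and the log2 difference of 4.25 ± 0.16 (SE) was the largest of the 9479 genes tested. The Ccl3 values stand for at least 14 and 22 whole reads with DMSO and 565 and 454 with GSK343.

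Ccl4, the neighbour of Ccl3, followed at nearly the same size. It was at 3.59 and 3.01 RPKM with DMSO and 58.5 and 71.8 with GSK343, or at least 31 and 22 reads against 509 and 515. Its mean was 19.7 times the DMSO mean, with a log2 difference of 3.94 ± 0.12 (SE) and 1 gene above it, Ccl3. By mean level Ccl3 ranked 8309th of 20650 gene names with DMSO and 1624th with GSK343, and Ccl4 7370th and 1350th.

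Ccl5 and Ccl22 were higher with GSK343 too, but from low levels and by less. Ccl5 was at 2.88 and 2.54 RPKM with DMSO and 9.71 and 6.57 with GSK343, a mean 3.00 times as high and a log2 difference of 1.28 ± 0.16 (SE), with 105 genes above it. Ccl22 was at 0.932 and 1.45 RPKM with DMSO and 2.86 and 3.67 with GSK343, a mean 2.74 times as high and a difference of 0.96 ± 0.16, with 235 genes above it. Ccl22 thus stayed under 4 RPKM in each of these libraries. All 4 members were higher without overlap, where 33.7% of all genes tested were higher and 25.6% lower. The median of the members was 2.61, against 0.017 for all genes.

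In these libraries Ccl6, which flanks Ccl3, was at 0.126 RPKM or less, Ccl9 next to Ccl5 at 0.051 or less, and Pllp next to Ccl22 at 0.431 or less. Ccl17, which like Ccl22 binds Ccr4, was listed at 0 in all 4 libraries. Of 37 other chemokines on the list, 31 are in the inhibitor files and 29 were under 1 RPKM in every library, 10 of them at 0.

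Markers of other cell types were measured in both arms. The summed level of 9 natural killer and cytotoxic markers was 0.797 to 1.17 RPKM with DMSO and 2.64 to 3.92 with GSK343, most of it Prf1, with Ncr1, Klrd1 and Klrk1 at 0 in both arms. That of 12 T cell markers was 52.5 to 54.7 with DMSO and 35.6 to 41.7 with GSK343, nearly all Cd2, with Cd3e, Trat1 and Themis at 0 in both. Gzma and Gzmb, at 0.087 RPKM or less with DMSO, were at 0 with GSK343. The 14 myeloid markers summed to 14.2 to 15.8 and 15.5 to 18.2, and 12 of them were under 1 RPKM in every library. Csf1r, Lyz1, S100a8 and Csf3r were at 0 with DMSO. Each was above 0 in at least 1 GSK343 library, but at 0.219 RPKM or less. Ms4a7 went from 1.51 RPKM with DMSO to 7.08 with GSK343, Itgam from 0.15 to 0.49 and Cd68 from 13.0 to 8.33. The 10 dendritic cell markers summed to 27.1 to 28.2 and 33.7 to 36.3, with Clec9a and Cd209a at 0 in both. Their part in the chemokine values was not tested.

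**Figure D3:**
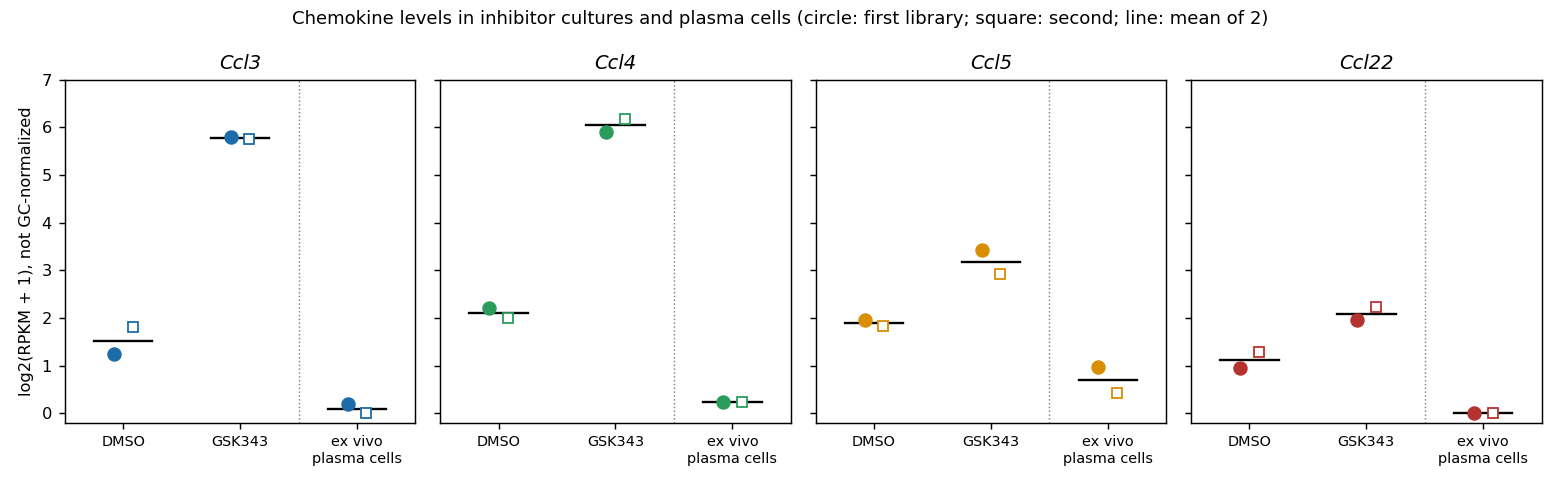
log2(RPKM + 1) of the 4 chemokines in pre-plasmablasts with DMSO or GSK343 and, right of the dotted line, in ex vivo plasma cells from separately made files; the circle is the first and the open square the second library, and the line is the mean of their log2 values. All GSK343 libraries lie above the DMSO libraries, and no plasma cell library reaches 1 RPKM for any of the genes.

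In ex vivo plasma cells all 4 chemokines were near or at 0. Ccl3 was at 0.143 and 0 RPKM, Ccl4 at 0.171 and 0.178, Ccl5 at 0.958 and 0.332, and Ccl22 was listed at 0 in both libraries. None reached 1 RPKM. The names in these 2 files had to be realigned with their values, and with the names as deposited the means would read 0.645 RPKM for Ccl3, 0.785 for Ccl4, 0.0355 for Ccl5 and 0.407 for Ccl22. Natural killer and cytotoxic markers summed to 37.2 to 51.7 RPKM in plasma cells, most of it Prf1 (mean 35.8) and Gzma (7.52), with Ncr1, Klrd1 and Gzmb at 0. Myeloid markers summed to 100.4 to 149.1 RPKM, with Cd68 (mean 57.3) and S100a9 (30.5) the highest. T cell markers summed to 53.7 to 69.4 RPKM, with Cd2 (mean 33.1) and Cd4 (10.8) the highest and Trat1 at 0. Dendritic cell markers summed to 40.6 to 42.5 RPKM, with Fscn1 (mean 28.0) the highest. The part of other cells in the low chemokine values was not tested.

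Placed among all genes, the members lay at the edges in 2 of the comparisons. Ccl22 was the only gene above 5.25 on the log2 scale for loss of Blimp1, and Ccl3 and Ccl4 were the top pair for GSK343. In the first of these Ccl4 and Ccl3 lay on the lower side, with 290 and 1110 genes below them.

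**Figure D4:**
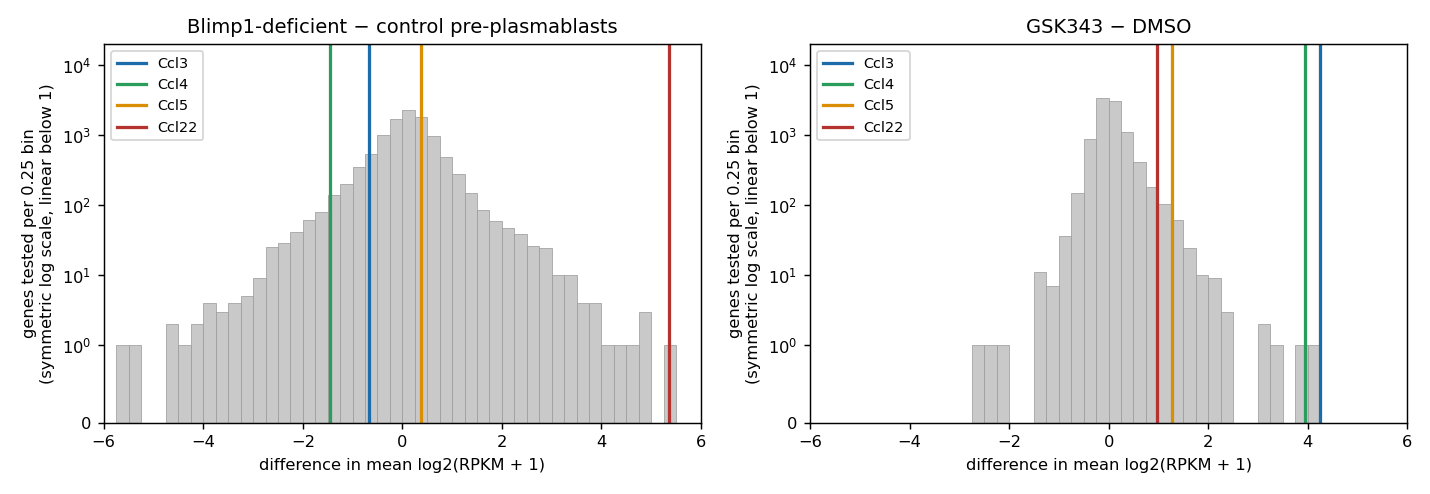
Histograms of the difference in mean log2(RPKM + 1) over all genes tested, on a symmetric log axis of genes per bin, for Blimp1-deficient against control pre-plasmablasts and for GSK343 against DMSO; coloured lines mark the 4 chemokines. Ccl22 at 5.36 is the right edge on the left, and Ccl3 at 4.25 and Ccl4 at 3.94 are the right edge on the other side.

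Of the 4 profiles over the 8 culture libraries, those of Ccl3 and Ccl4 were the least far apart, and that of Ccl22 was far from each of the others. After centring each gene on its own mean log2 level, the root mean square difference was 0.59 between Ccl3 and Ccl4, 0.96 between Ccl3 and Ccl5, and 1.21 between Ccl4 and Ccl5. From Ccl22 it was 2.12 to Ccl5, 2.58 to Ccl3 and 3.06 to Ccl4. These distances describe 8 libraries in 4 groups. Around its own mean Ccl22 varied by 2.39, Ccl5 by 0.73, Ccl4 by 0.69 and Ccl3 by 0.37, so the distances from Ccl22 are large by its own variation. The 0.59 between Ccl3 and Ccl4 is above the 0.37 of Ccl3, so a flat profile would lie nearer to Ccl3 than Ccl4 does.

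Among 10472 other genes, those with the profiles most like Ccl22 were Mpeg1 at a distance of 0.37, Mafa at 0.42 and Ccbp2 at 0.52. Mpeg1 encodes a pore-forming protein of phagocytes and B cells, and Ccbp2 encodes an atypical receptor that takes up inflammatory CC chemokines. Mpeg1 had 45.0 RPKM in activated B cells, 4.29 in pre-plasmablasts, 4.06 in plasmablasts and 138.8 without Blimp1. Nearest to Ccl5 were Ptgir, a prostacyclin receptor, at 0.22, Rab31 at 0.31 and the somatostatin receptor Sstr5 at 0.31. Nearest to Ccl4 were Chchd10 at 0.18, Cytip at 0.19 and Shmt2 at 0.20, and to Ccl3 Gnb4 at 0.17, Ube2s at 0.18 and the interferon receptor gene Ifnar1 at 0.18.

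Ccr1, Ccr3 and Ccr4, which bind members of the set, were low in the files that list them. Ccr1, a receptor of Ccl3 and Ccl5, had 1.09 ± 0.013 RPKM in activated B cells, 0.042 ± 0.059 in pre-plasmablasts and 1.56 ± 0.63 in Blimp1-deficient pre-plasmablasts. The log2 difference between deficient and control cells was 1.28 ± 0.17 (limma adjusted p = 0.00151). In the inhibitor files Ccr1 was listed at 0, and Ccr3 was at 0.028 RPKM or less. Ccr4, the Ccl22 receptor, was at 0.11 ± 0.12 RPKM with DMSO and 0.19 ± 0.038 with GSK343.

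Other chemokine and receptor genes came from a list of textbook members. Of 37 other chemokines 3 could be tested in culture, where Cxcl10, an interferon-induced chemokine, rose from 1.31 ± 0.011 RPKM in activated B cells to 13.8 ± 8.36 in pre-plasmablasts (log2 difference 2.56 ± 0.41 (SE), limma adjusted p = 0.00258). With loss of Blimp1, Cx3cl1, the neighbour of Ccl22 on chromosome 8, was at 4.82 and 4.86 RPKM against 0.054 and 0.122 in control pre-plasmablasts. It passed the filter on low values only through the deficient libraries, so that it had to differ, by 2.43 ± 0.10. With GSK343 Ccl25 and Cxcl10 could be tested, and their libraries overlapped, with differences of 0.073 ± 0.14 (limma adjusted p = 0.765) and 0.19 ± 0.15 (adjusted p = 0.437).

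Of 11 chemokine receptors tested in culture, 5 rose and 5 fell from activated B cells to pre-plasmablasts, where limma called 20.2% of all genes higher and 28.0% lower. The changes with the largest size were in Ccr6 (-3.61), Ccbp2 (-3.23) and Ccrl2 (2.78). With loss of Blimp1 5 rose and 2 fell, beside 24.4% of all genes called higher and 16.1% lower. Ccbp2 went from 0.760 ± 0.36 to 37.4 ± 6.27 RPKM, a log2 difference of 4.45 ± 0.22 (limma adjusted p = 5.66e-05), Ccr7 from 25.6 to 121.2 RPKM (2.19) and Ccrl2 from 33.2 to 7.21 (-2.05). By mean level Ccbp2 was lowest and highest in the same groups as Ccl22. Against activated B cells the deficient cells had 4 receptors higher and 1 lower, beside 10.4% and 7.60% of all genes, with Ccr6 at -3.90, Cxcr4 at 2.62 and Cxcr7 at 1.94.

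Between plasmablasts and pre-plasmablasts 2 of the 11 receptors fell, beside 1.62% of all genes called lower and 0.716% higher. They were Cxcr5 (-1.61, limma adjusted p = 0.0037) and Ccr7 (-1.09, adjusted p = 0.0473), and the call of Ccr7 was lost in 10 of 13 alternatives, with adjusted p up to 0.249. With GSK343 7 of 10 receptors rose and 1 fell, beside 12.7% of all genes called higher and 5.86% lower. The one that fell was Cxcr3, which passed the filter on low values only through the DMSO libraries and lost its call in 2 of the 5 alternatives that tested it. The largest rises were of Ccr10 from 2.50 to 8.61 RPKM (1.46), Ccr7 from 5.64 to 16.5 (1.40) and Ccr9 from 24.0 to 59.4 (1.29), all smaller than those of Ccl3 and Ccl4. Without the first GSK343 library 5 of these receptors and other chemokines were called in place of 8. The median receptor difference was -0.060, -0.14, 0.56, 0.50 and 0.59 in the 5 comparisons in the order given in the plot of member differences.

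**Figure D5:**
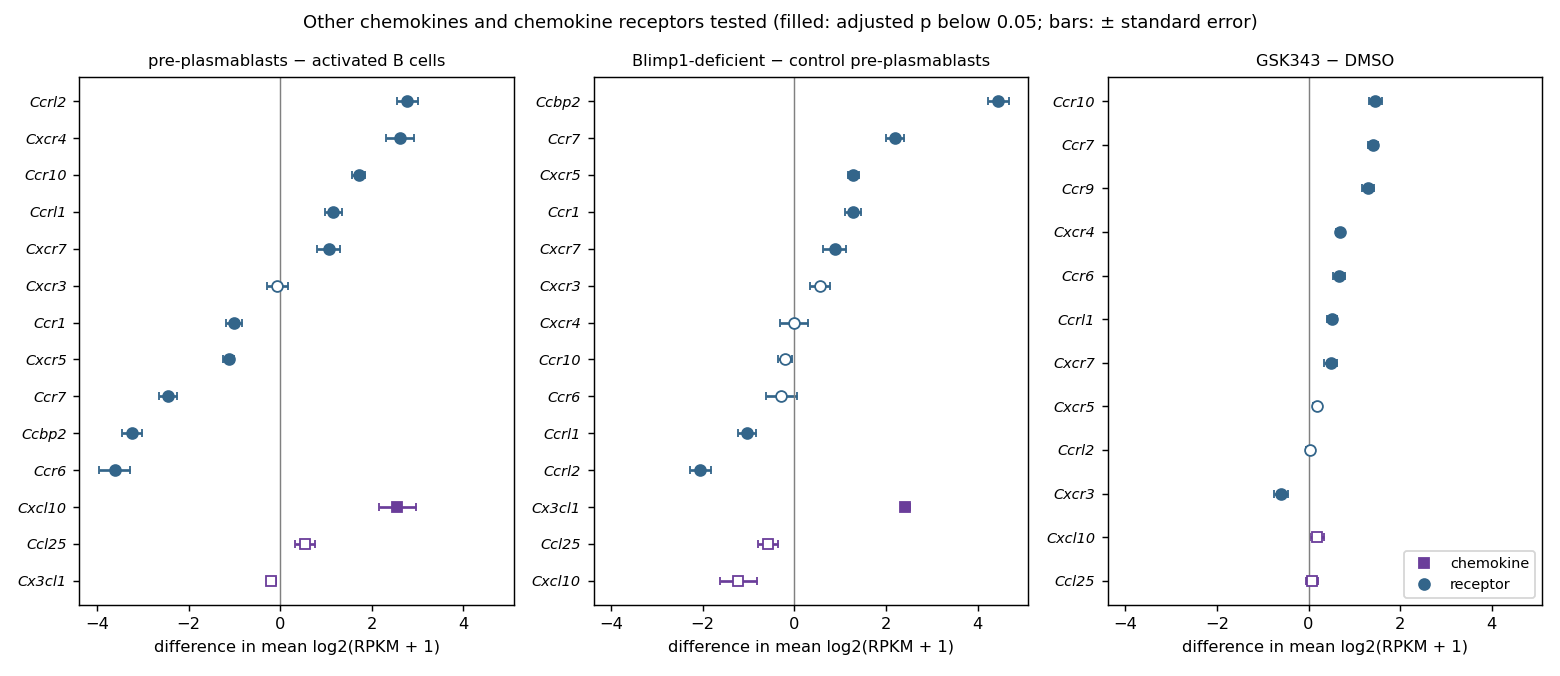
Difference in mean log2(RPKM + 1) with bars of ± 1 SE for every other chemokine (squares) and chemokine receptor (circles) tested, in 3 comparisons; filled symbols have a limma adjusted p below 0.05. Ccbp2 at 4.45 is the highest receptor with loss of Blimp1, and none exceeds 1.46 with GSK343.

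Genes of the NF-kB pathway, which is known to drive chemokine transcription, were all measured. Of 13 subunits and inhibitors 9 fell and 0 rose from activated B cells to pre-plasmablasts, with a median of -0.70, beside 28.0% of all genes called lower and 20.2% higher. In the same comparison Ccl22 was lower, and Ccl4 and Ccl5 were higher. The largest changes were Bcl3 (-1.71), Nfkb1 (-1.38) and Nfkbid (-1.26). With loss of Blimp1 7 rose and 0 fell, with a median of 0.58, beside 24.4% of all genes called higher and 16.1% lower, and Tnip1 (1.10), Nfkb1 (0.99) and Nfkbie (0.97) were among those that rose. Against activated B cells the deficient cells had 4 lower and 0 higher, led by Bcl3 (-1.13), beside 7.60% of all genes called lower and 10.4% higher, and 1 to 3 were called without 1 library. Between plasmablasts and pre-plasmablasts 3 fell, beside 1.62% of all genes, and 0 to 1 were called without 1 library. They were Nfkbie (-1.28), Nfkbid (-0.58) and Nfkb2 (-0.47), and each lost its call in at least 5 of 13 alternatives. With GSK343 3 rose and 1 fell, with a median of 0.039, beside 12.7% of all genes called higher and 5.86% lower, the largest being Rel (0.77), Nfkbiz (0.75) and Nfkbie (0.70), and the call of Rel was lost in 2 of 7 alternatives.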

How the data were processed

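The authors deposited RPKM values for each RNA library, GC-normalized for the culture experiment per the file names. The submitters' processing notes name the mm9 build and SICER, DESeq 1.8.3, TopHat 1.4.1 and HTSeq 0.5.3, without their roles. The annotation is not given in the sources used here. Poly(A) RNA and strand-specific libraries were made per the labels' protocols. In plasma cell files 5 read-counter summary names without values displace the names, which were moved back. Across 16533 genes, Spearman's rho with the first DMSO library was then 0.905, against 0.356 as deposited. Names listed more than once were left out.

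Genes reaching 1 RPKM in 2 or more libraries were tested on log2(RPKM + 1) with limma 3.58.1 in R 4.3.3 (lmFit, eBayes with trend, two-sided), 10473 in 1 fit of the 4 culture groups and 9479 in the inhibitor fit. Calls are adjusted p under 0.05 (Benjamini-Hochberg, across every gene in the fit), and the script was tested on simulated data. Library numbers in the labels fall into 2 series, 1 library of each group per series, and same-series libraries deviated together in all 6 group pairs (correlations of 0.67 to 0.78 across genes), so the series was used as a block in an alternative. The 4 members and the 12 gene lists were chosen with earlier results of these data known. Named were the members, Ccr1, Ccr3 and Ccr4, in each list the 3 called genes with the largest differences, and the 3 genes most like each member. Proteins were not compared. One further item of the naming rule is not reported here.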

Additional observations from a re-analysis of the deposited data

How the results depend on the processing

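The members' differences kept their sign and moved by less than 1 SD in 109 of 120 repeats with another setting. Without 1 library the difference ranged from -0.47 to 0.049 for Ccl3 in pre-plasmablasts against activated B cells, and in plasmablasts against pre-plasmablasts from -0.37 to 0.10 for Ccl3, -0.30 to 0.51 for Ccl4 and -0.93 to 0.25 for Ccl22. A pseudocount of 0.1 gave -1.77 for Ccl4 in Blimp1-deficient against control pre-plasmablasts and -0.72 against activated B cells, and with GSK343 4.78 for Ccl3, 4.26 for Ccl4 and 1.40 for Ccl22. Plasma cell names as deposited gave 0.645 RPKM for Ccl3, 0.785 for Ccl4, 0.0355 for Ccl5 and 0.407 for Ccl22.

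The replicate block by library number series cannot change the members' differences, since each group has 1 library in each series. The block raised the genes called from 245 to 2128 for plasmablasts against pre-plasmablasts. For Blimp1-deficient against control pre-plasmablasts the count went from 4234 to 6829. For Blimp1-deficient pre-plasmablasts against activated B cells it went from 1885 to 4477. With only the groups compared in the fit, 1 gene was called for plasmablasts against pre-plasmablasts and 1200 for Blimp1-deficient pre-plasmablasts against activated B cells. Without 1 library these counts were 23 to 149 and 719 to 1611, and 747 to 1955 with GSK343. Other chemokine and receptor genes called in plasmablasts against pre-plasmablasts numbered 2, but 1 after scaling or with a pseudocount of 0.1, 0 with only these groups in the fit, and 1 to 2 without 1 library. With GSK343 they numbered 8, and 5 to 7 without 1 library. Where an arm is left with 1 library, it is assumed to vary like the others. The cause of these changes was not tested. With 2 libraries a group, small differences are not detectable. The Ccl22 values in the inhibitor libraries stand for at least 22 to 72 whole reads, and the true counts are not known.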

Other observations

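Among 12 tested genes of other secreted cytokines, 3 rose and 6 fell from activated B cells to pre-plasmablasts, beside 20.2% of all genes called higher and 28.0% lower. Il10, an anti-inflammatory cytokine, rose from 1.42 to 88.7 RPKM (log2 difference 5.31 ± 0.36 (SE), limma adjusted p = 6.98e-05), while Tnf (-3.55) and Lta (-3.15) fell. With loss of Blimp1 6 rose and 3 fell, beside 24.4% of all genes called higher and 16.1% lower, with Il10 at -2.28, Csf1 at 2.08 and Tnf at 1.88. Tnf was thus lower in pre-plasmablasts and higher without Blimp1, like Ccl22. Against activated B cells these genes went opposite ways, with Ccl22 higher in the deficient cells (2.11) and Tnf lower. With GSK343 2 of 7 rose and 2 fell, beside 12.7% of all genes called higher and 5.86% lower, and 1 to 4 were called without 1 library. Il15 had the largest change, from 1.22 to 4.03 RPKM (1.18 ± 0.13).

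Of 27 genes of LPS and TLR4 signalling, 7 rose and 9 fell from activated B cells to pre-plasmablasts, and 9 rose and 7 fell with loss of Blimp1, beside the same shares of all genes. Without 1 library the 16 calls of the first were 12 to 15 and the 16 of the second 8 to 14. Ly86, a partner of an LPS-responsive surface receptor of B cells, fell by 2.46 in the first and rose by 2.48 in the second. Irf7 moved the other way, by 2.32 and -2.24. With GSK343 5 of 28 rose and 4 fell, beside 12.7% of all genes called higher and 5.86% lower, and 6 to 10 were called without 1 library. The largest changes were of Cd180 (1.05), Cd14 (1.05) and Ly86 (0.75). Cd14 passed the filter on low values only through the GSK343 libraries. Of the AP-1 and immediate early genes with GSK343, 3 of 10 rose and 1 fell, beside the same 12.7% and 5.86% of all genes. Egr3 was at 1.33, Egr2 at 1.10 and Batf at 0.94.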
